A study of Mus musculus with 2 samples.

Results

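The genes described here serve the endoplasmic reticulum (ER) and the vesicles that leave it: chaperones and folding enzymes, sensors of the unfolded protein response, degradation factors, the translocon, signal peptidase, and the coats and receptors that carry cargo to the Golgi and back. A list of 58 genes was matched by symbol to the deposited table, and 57 of them had an entry among 16040 genes. Hsp90b1 was listed under the alias Grp94 and was matched by its RefSeq transcript; Manf, an ER protein induced by stress, was not matched and is not analysed here. With a minimum of 10 counts over both libraries, 55 members were tested, and Ern1 and Derl3 stayed below it.

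The samples were fibroblasts from lungs of Col1a2-EGFP mice, in which a type 1 collagen gene's regulatory sequence marks cells with green fluorescence. The bleomycin group was taken 14 days after an intratracheal dose of bleomycin, a DNA-damaging drug that produces lung fibrosis in rodents, and the saline group 14 days after intratracheal saline; no label gives the age or sex of the mice. Each group was 1 library made from 3 mice, so no difference below has a replicate check, and a test on the counts compares these libraries and not the conditions. Green cells without lineage markers were sorted, and serial analysis of gene expression (SAGE) counted a short tag from each transcript, near its 3′ end. Such a count does not scale with transcript length.

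The bleomycin library held 1099840 counts and the saline library 1080798. All 8 fibroblast genes listed as markers were detected in both libraries, and they went both ways: 4 were higher, among them Col1a2, whose reporter was the basis of the sort, with 5613 counts in the bleomycin library and 1636 in the saline library, and 3 were lower, among them Dcn with 1606 and 4861. Of 10 tested smooth muscle and pericyte markers, 1 was higher and 5 were lower, and the list summed to 1076 counts in the bleomycin library and 1120 in the saline library. Des, the marker that was higher, gave 571 of these counts in the bleomycin library and 169 in the saline library. Of 14 endothelial markers, 11 were tested and 11 were lower, and their counts summed to 48 in the bleomycin library and 633 in the saline library; 4 of the 14 were at 0 in the bleomycin library and 1 in the saline library. Alveolar type 2 markers summed to 11 and airway markers to 169 counts in the bleomycin library, against 169 and 583 in the saline library. Of the alveolar type 2 counts, Sftpc gave 7 in the bleomycin library and 154 in the saline library. Tppp3 gave 153 and 535 of the airway counts, and Scgb1a1 gave 12 and 46. Foxj1 went the other way, with 3 counts in the bleomycin library and 0 in the saline library, and Muc5b and Bpifa1 were at 0 in both. Genes of plasma cells, a cell type rich in ER, summed to 292 counts over 8 genes in the bleomycin library and 199 in the saline library, of which Sdc1 gave 136 and 6. Without Sdc1 that list, which includes the member Xbp1, summed to 156 in the bleomycin library and 193 in the saline library. Igj had 19 counts in the bleomycin library and 23 in the saline library, Irf4 had 0 and 10, Mzb1 had 1 and 0, and Tnfrsf17 was at 0 in both. Leukocyte markers summed to 14 counts in the bleomycin library and 57 in the saline library, of which Lyz1 gave 10 and 55. Ptprc, Cd14 and Fcer1g had 1, 2 and 1 counts in the bleomycin library and 0 in the saline library. Mesothelial markers summed to 140 in the bleomycin library and 163 in the saline library. The part of other cell types in the results below was not tested.

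Secreted proteins enter the ER through the Sec61 channel, lose their signal peptide, fold with the help of chaperones, and leave in vesicles with a COPII coat, while COPI vesicles return escaped proteins. When unfolded chains build up, sensors in the ER membrane raise the synthesis of chaperones and degradation factors. Fibroblasts that deposit matrix send large amounts of procollagen along this route.

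As a group the members took up almost the same part of each library. Their counts summed to 10335 in the bleomycin library and 10218 in the saline library, or 0.940% and 0.945% of all counts. In such bulk libraries, fewer cells of a type and less RNA per cell cannot be told apart. Calls were made with an exact binomial test of the library split of each gene's counts, adjusted by the Benjamini-Hochberg method over 9369 genes, with library sizes scaled by the trimmed mean of M values (TMM). An adjusted p under 0.05 together with a ratio of at least 2 was met by 3 members that were higher and 1 that was lower. They made up 7.27% of the tested members, where 16.7% of all tested genes were called, 8.11% higher and 8.59% lower. At any ratio, 13 members were higher and 5 lower, or 32.7%, where the share for all tested genes was 27.9% (13.8% higher and 14.1% lower). Members were more abundant than most genes, with a median of 109 counts in the bleomycin library and 107 in the saline library, against 25 and 26 for all tested genes, and abundant genes pass at smaller ratios. Among genes with at least 50 counts over both libraries, 39.1% of 46 members and 42.7% of 4823 genes passed at any ratio. Of these members 12 were higher and 6 lower, and of these genes 998 were higher and 1060 lower. At 2-fold or more, 1 of these members was higher and 1 lower, or 4.35%, against 8.31% of the genes higher and 10.2% lower (18.5% in all). With both directions pooled, the members as a list were therefore near or below the background. By direction, calls at any ratio leaned higher among members, with 13 higher and 5 lower, and did not among all tested genes. The split depended on the scaling. With total counts in place of TMM, 11 members were higher and 8 lower, and over all genes 1173 were higher and 1478 lower. No test compared these splits. The median log2 ratio of members was 0.07, beside 0.02 for all tested genes.

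**Figure D1:**
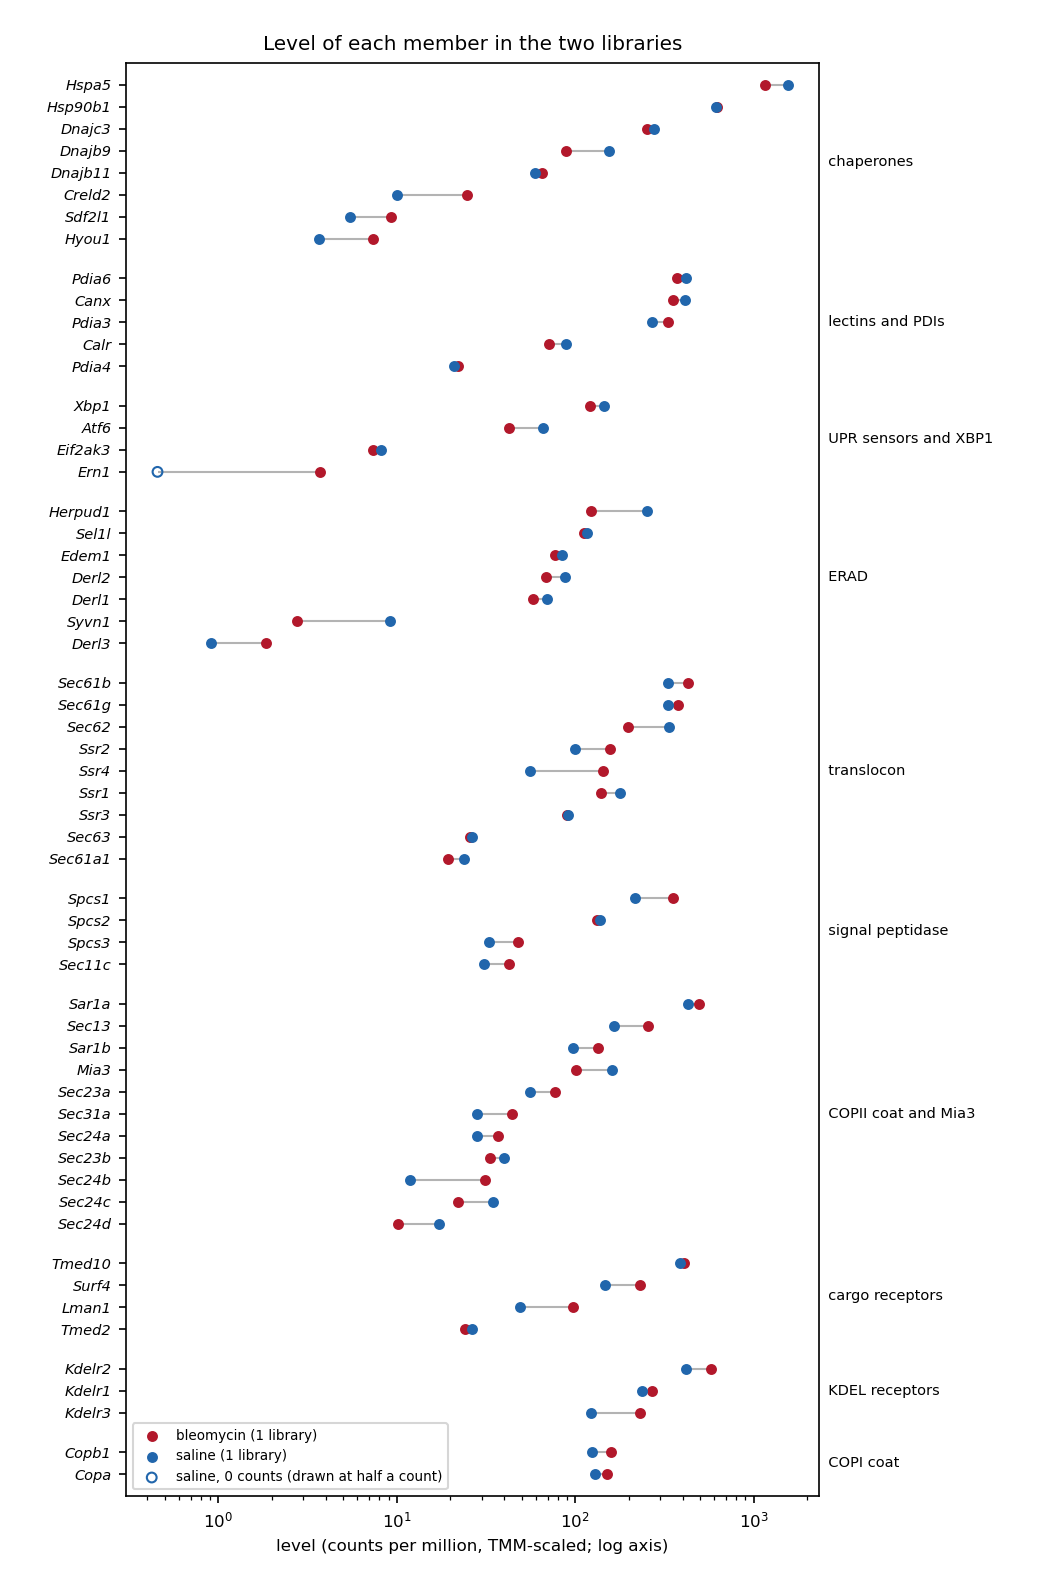
Level of each member in CPM, counts scaled by library size (log axis), with the bleomycin library in red and the saline library in blue, ordered by role; an open circle marks 0 counts, drawn at 0.5 counts. Hspa5 is the most abundant member in both libraries, and the red points lie left of the blue for Herpud1 and Dnajb9 and right of them for Ssr4, Lman1 and Kdelr3.

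The ratios were described by role, with no test between roles. Chaperones, lectins and disulphide isomerases had 7 of 13 tested members above a ratio of 1 and 6 below, with a median log2 ratio of 0.02. All 9 tested sensor and degradation genes, with Xbp1 grouped among the sensors, lay below 1 (median log2 ratio −0.25), and 1 of them was called. Translocation and signal cleavage genes had 7 above and 6 below, and vesicle export and retrieval genes had 15 above and 5 below. By calls at any ratio, folding, sensor and degradation genes together had 2 higher and 3 lower (22.7% of 22), translocation and cleavage genes had 4 higher and 1 lower (38.5% of 13), and export and retrieval genes had 7 higher and 1 lower (40.0% of 20), where 27.9% of all tested genes were called. Among all genes with at least 50 counts, which pass at smaller ratios, that share was 42.7%. Summed over members, folding, sensor and degradation genes had 4325 counts in the bleomycin library and 5175 in the saline library, a ratio of 0.845 (0.812 to 0.880). The sum for vesicle export and retrieval was 3671 in the bleomycin library and 2968 in the saline library, a ratio of 1.25 (1.19 to 1.31). Ranges in brackets are exact Clopper-Pearson 95% intervals of the ratio of the libraries, and they cover counting error only. Hspa5 alone made up 28.9% of the folding, sensor and degradation counts in the bleomycin library and 32.8% in the saline library. Without it that ratio was 0.894 (0.852 to 0.939), and without Hspa5 and Herpud1 it was 0.930 (0.884 to 0.978).

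Among the chaperones, the most abundant member was lower. Hspa5 encodes BiP, the Hsp70 chaperone of the ER lumen that also binds the stress sensors, and had 1249 counts in the bleomycin library and 1697 in the saline library. Its ratio was 0.744 (0.691 to 0.801), with an adjusted p of 4.64e-14 in the exact binomial test. Dnajb9, a cochaperone of BiP that hands misfolded proteins to degradation, fell to 96 counts in the bleomycin library, against 170 in the saline library, a ratio of 0.571 (0.440 to 0.738). Hsp90b1, the Hsp90 chaperone of the ER, had 675 and 673 counts in the bleomycin and saline libraries and a ratio of 1.01 (0.910 to 1.13), so a change of the size seen for Hspa5 lay outside its interval. Dnajb11, a cochaperone that binds nascent chains, had 71 counts in the bleomycin library and 65 in the saline library, and Dnajc3, a cochaperone that also restrains the stress kinase Eif2ak3, had 274 and 303. Neither passed the test.

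Creld2, an ER protein induced by stress, was the only chaperone gene that was higher, with 27 counts in the bleomycin library and 11 in the saline library, a ratio of 2.48 (1.19 to 5.55) and an adjusted p of 0.0355 in the exact test. That call was lost with median-of-ratios scaling (adjusted p = 0.0513) and with no minimum count (adjusted p = 0.0513), both by the exact test. Hyou1, which exchanges nucleotide on BiP, had 8 counts in the bleomycin library and 4 in the saline library, and Sdf2l1, a partner of ER chaperone complexes, had 10 and 6. The interval was 0.542 to 9.18 for Hyou1 and 0.555 to 5.64 for Sdf2l1, so a difference was not detectable at this depth.

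Lectin chaperones and disulphide isomerases differed little between the libraries. Calr, calreticulin, had 77 counts in the bleomycin library and 97 in the saline library, and Canx, its membrane-bound relative calnexin, had 385 and 450. Both hold glycoproteins during folding, and neither passed the test, although Canx did so, lower, with total counts (adjusted p = 0.0457 in the exact test). Pdia3, the oxidoreductase that works beside them, was higher at 359 counts in the bleomycin library and 295 in the saline library, a ratio of 1.23 (1.05 to 1.44). Its call was lost with total counts (adjusted p = 0.0743 in the exact test) and with median-of-ratios scaling (adjusted p = 0.0508 in the exact test). Pdia6 had 401 counts in the bleomycin library and 460 in the saline library, Pdia4 had 24 and 23, and the intervals of both held a ratio of 1.

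No tested sensor of the unfolded protein response passed, nor did Xbp1, a target of the sensor Ern1 that is grouped with the sensors here. Xbp1, a transcription factor activated by splicing of its own transcript, had 132 counts in the bleomycin library and 159 in the saline library; a 3′ tag does not tell the spliced from the unspliced form. Atf6, a transcription factor released from the ER membrane by stress, had 46 counts in the bleomycin library and 72 in the saline library, a ratio of 0.646 (0.436 to 0.948). Its adjusted p was 0.0702 in the exact test, 0.0465 with total counts and 0.0497 with a minimum of 50 counts. Eif2ak3, the kinase that slows translation under stress, had 8 and 9 counts in the bleomycin and saline libraries. Ern1, the kinase and ribonuclease that splices Xbp1, had 4 counts in the bleomycin library and 0 in the saline library, where finding 0 is compatible with up to 2.74 CPM (counts scaled by library size).

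All 6 tested degradation genes had ratios below 1, and Herpud1 was the member called lower by at least 2-fold. Herpud1, a membrane adaptor of ER-associated degradation, had 133 counts in the bleomycin library and 278 in the saline library. Its ratio was 0.484 (0.390 to 0.597), with an adjusted p of 3.24e-11 in the exact binomial test. The other members of this route did not pass the test. Syvn1, the ubiquitin ligase of the route, had 3 counts in the bleomycin library and 10 in the saline library. Sel1l, which holds the ligase complex together, had 121 and 128, and Edem1, which delivers misfolded glycoproteins, had 83 and 92, in the bleomycin and saline libraries. The derlins, membrane proteins of the exit channel, had 63 counts for Derl1 and 74 for Derl2 in the bleomycin library, against 76 and 96 in the saline library. Derl3 had 2 counts in the bleomycin library and 1 in the saline library.

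**Figure D2:**
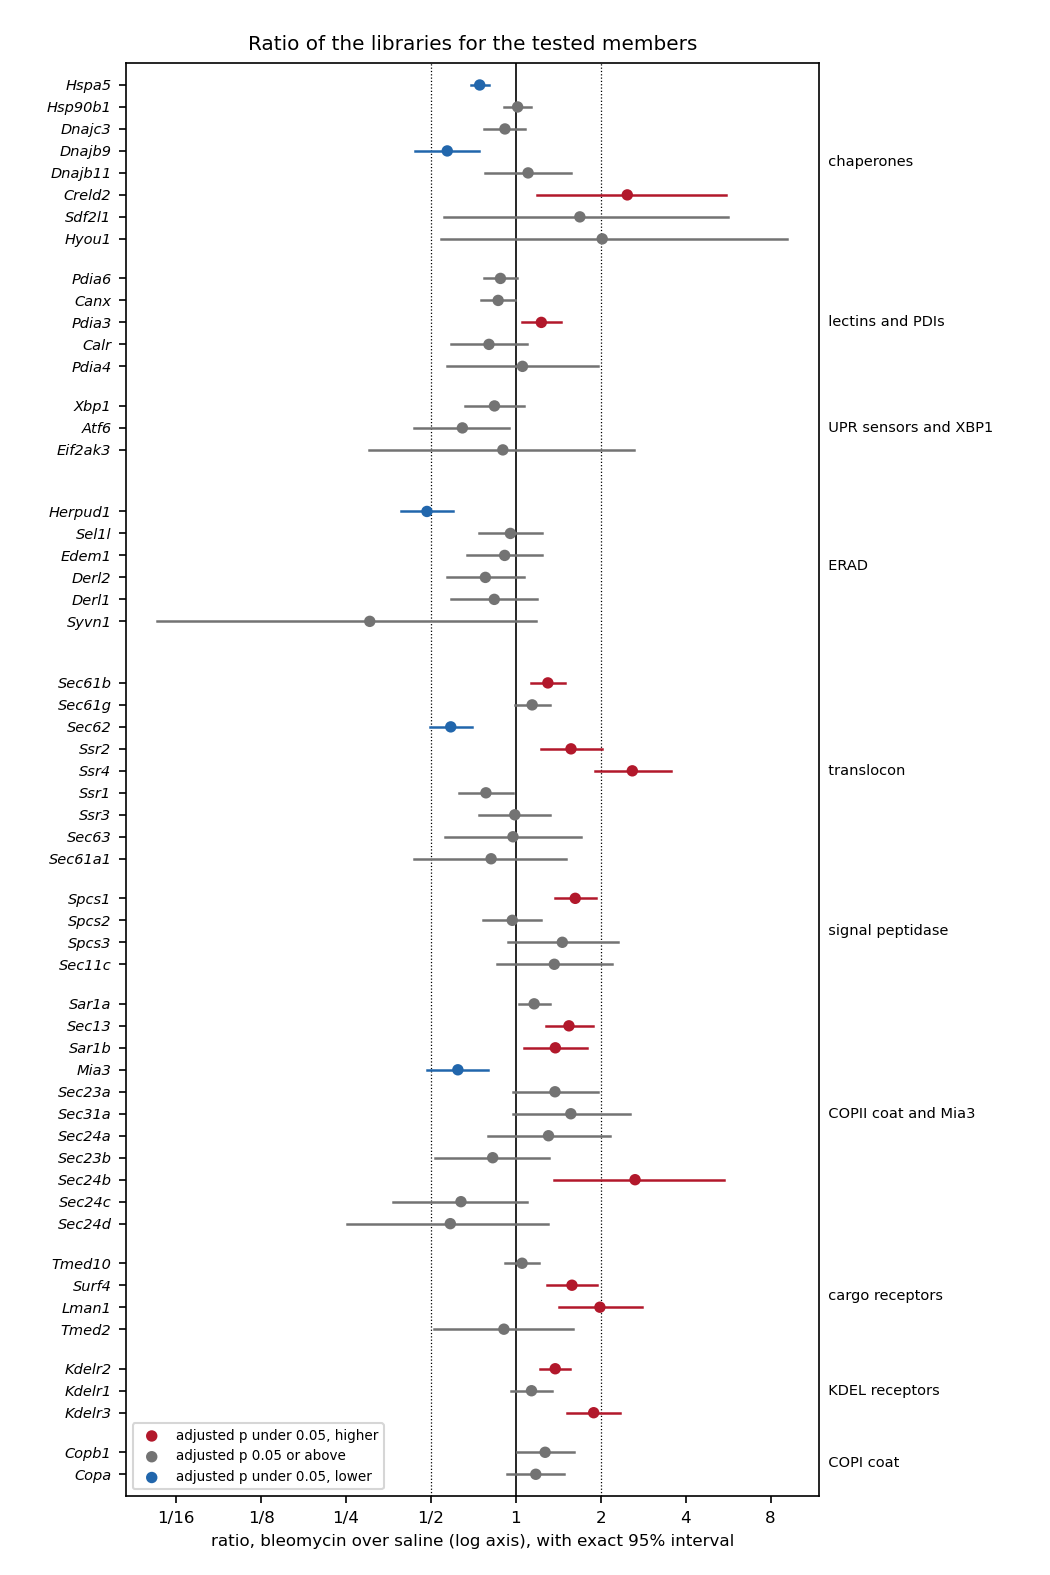
Ratio of the bleomycin over the saline library for the 55 tested members (log axis), with exact 95% intervals; red points passed the adjusted p higher, blue points passed it lower, and dotted lines mark ratios of 1/2 and 2. Blue points are Hspa5, Dnajb9, Herpud1, Sec62 and Mia3, and no red point lies among the sensor and degradation genes.

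Several members are textbook targets of the unfolded protein response, so the promoters were searched for its DNA motifs. The ER stress response element (ERSE, CCAAT and CCACG with 9 bases of any kind between them), its variant ERSE-II (ATTGG and CCACG with 1 base between them) and an 8-base element bound by XBP1 and ATF6 (TGACGTGG, called UPRE-like here) were searched on both strands. The windows ran from 250 bases before to 50 bases after the annotated gene start, as given by RefSeq for build GRCm38.p6. The motifs share the letters CCACG or their reverse complement CGTGG, and ATTGG is the reverse complement of CCAAT, and no member held more than 1 kind. Promoters were found for 47 of 58 members; none was found for Hyou1, Manf, Atf6, Derl1, Sec61a1, Ssr2, Spcs3, Sec11c, Lman1, Tmed2 and Kdelr2. ERSE occurred in 9 of the 47 members (19.1%) and in 0.137% of 27025 genes; ERSE-II occurred in 2 members (4.26%) and in 0.0444% of genes; and the UPRE-like element occurred in 4 members (8.51%) and in 0.714% of genes. These shares are a description of a list that holds known targets.

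The promoters of the lower chaperone gene Hspa5, the lower degradation gene Herpud1, the higher chaperone gene Creld2 and the higher retrieval receptor gene Kdelr3 are shown because they hold these motifs beside ratios of opposite direction. Capitals mark the motif match, read 5′ to 3′ on the strand of the gene.
Hspa5 promoter, chr2:34771840-34772139, plus strand, ERSE: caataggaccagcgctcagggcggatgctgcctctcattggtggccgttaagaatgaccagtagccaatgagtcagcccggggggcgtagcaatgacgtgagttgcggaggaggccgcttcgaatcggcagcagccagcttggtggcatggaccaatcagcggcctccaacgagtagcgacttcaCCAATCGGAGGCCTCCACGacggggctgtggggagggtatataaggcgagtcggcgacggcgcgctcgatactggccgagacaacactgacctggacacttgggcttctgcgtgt
Herpud1 promoter, chr8:94386179-94386478, plus strand, ERSE-II: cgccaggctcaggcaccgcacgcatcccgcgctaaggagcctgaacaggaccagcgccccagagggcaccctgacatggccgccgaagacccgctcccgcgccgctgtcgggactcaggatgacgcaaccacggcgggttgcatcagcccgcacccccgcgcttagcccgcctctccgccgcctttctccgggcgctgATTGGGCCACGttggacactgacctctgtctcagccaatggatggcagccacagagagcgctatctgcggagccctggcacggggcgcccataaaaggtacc
Creld2 promoter, chr15:88819396-88819695, plus strand, ERSE on the opposite strand: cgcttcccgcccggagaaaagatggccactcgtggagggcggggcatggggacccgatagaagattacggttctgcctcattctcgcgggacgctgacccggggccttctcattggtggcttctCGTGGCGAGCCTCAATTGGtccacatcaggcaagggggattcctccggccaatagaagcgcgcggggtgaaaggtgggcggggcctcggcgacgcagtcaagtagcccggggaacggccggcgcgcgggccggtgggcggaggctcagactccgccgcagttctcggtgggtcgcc
Kdelr3 promoter, chr15:79516158-79516457, plus strand, UPRE-like element on the opposite strand: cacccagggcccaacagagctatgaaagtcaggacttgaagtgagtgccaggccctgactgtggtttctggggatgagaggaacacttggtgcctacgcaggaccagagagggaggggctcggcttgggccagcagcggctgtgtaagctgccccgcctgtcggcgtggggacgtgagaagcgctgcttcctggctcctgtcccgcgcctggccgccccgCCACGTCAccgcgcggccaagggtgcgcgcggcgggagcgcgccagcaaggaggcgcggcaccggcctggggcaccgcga

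All 10 tested holders of an ERSE or ERSE-II were folding or degradation genes. Of these holders, 7 had ratios below 1, with 1 called higher (Creld2), 2 called lower (Hspa5 and Herpud1) and a median log2 ratio of −0.20. Of the 9 other tested genes of folding, sensing and degradation with a promoter, 6 had ratios below 1, with 1 called higher, 1 called lower and a median log2 ratio of −0.13. Over all 9369 tested genes, 27.9% were called at any ratio (13.8% higher and 14.1% lower), and 4649 had log2 ratios below 0. No test compared holders with the other genes of these roles or with all genes. The 4 holders of the UPRE-like element were Kdelr3, Sec23a, Copb1 and Sec24d, with 3 ratios above 1 and a median log2 ratio of 0.40. A match is a run of letters and not a measured binding site.

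**Figure D3:**
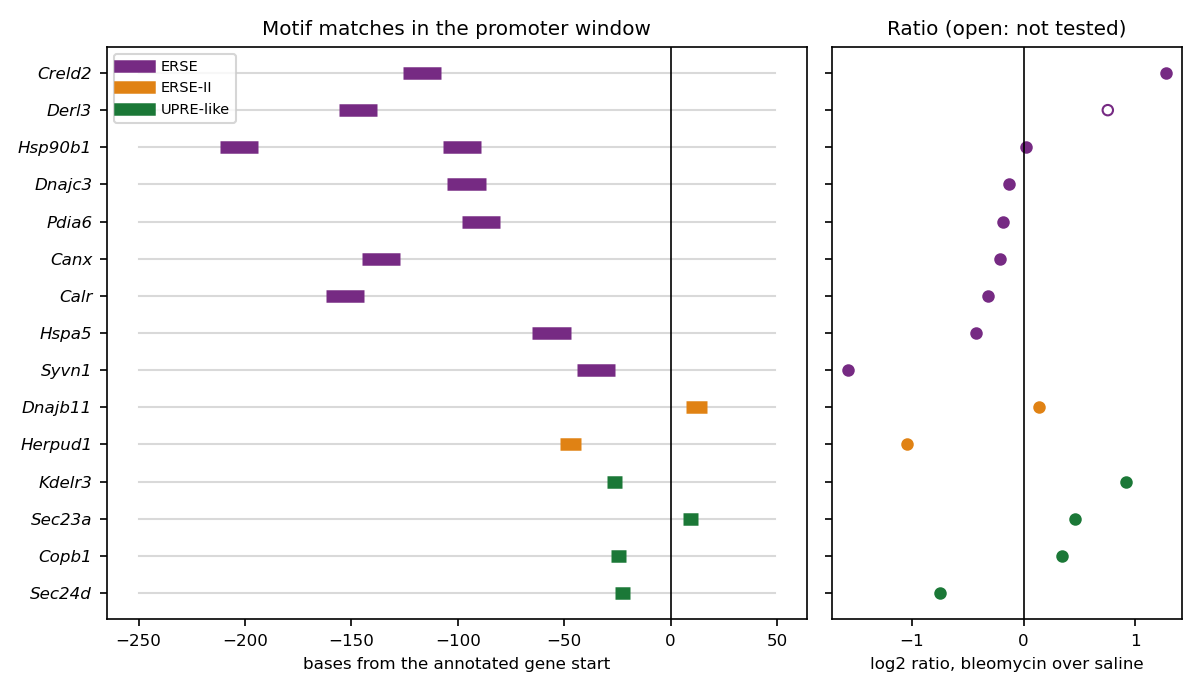
Left, matches to the 3 motifs in the promoter window of the 15 members that hold one, in bases from the annotated gene start (0 is the start); right, log2 ratio of bleomycin over saline for the same genes, with an open circle for a gene below the count minimum. Of the 8 tested ERSE holders, 6 lie left of 0 on the right panel, and Creld2, at 1.27, and Hsp90b1, at 0.02, lie right of it.

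Translocation genes were called in both directions. Ssr4, a subunit of the TRAP complex that helps nascent chains into the Sec61 channel, had 156 counts in the bleomycin library and 61 in the saline library. Its ratio was 2.59 (1.91 to 3.54), with an adjusted p of 7.06e-10 in the exact binomial test. Ssr2, another TRAP subunit, was higher at 169 counts in the bleomycin library and 109 in the saline library, a ratio of 1.57 (1.23 to 2.01). The remaining TRAP subunits did not pass, except Ssr1 with total counts (adjusted p = 0.0425 in the exact test, lower): Ssr1 had 151 counts in the bleomycin library and 195 in the saline library, and Ssr3 had 98 and 100. TRAP contains all 4 subunits, yet the share of Ssr4 in their summed tags was 27.2% (23.6 to 31.0) in the bleomycin library and 13.1% (10.2 to 16.5) in the saline library. That of Ssr1 was 26.3% (22.7 to 30.1) in the bleomycin library and 41.9% (37.4 to 46.6) in the saline library.

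The channel subunits moved less. Sec61b, the small beta subunit, was higher at 466 counts in the bleomycin library and 363 in the saline library, a ratio of 1.30 (1.13 to 1.49). Sec61g, the gamma subunit, had 411 counts in the bleomycin library and 364 in the saline library, and Sec61a1, which forms the pore, had 21 and 26; neither passed. Sec62, which with Sec63 opens the channel for short secretory proteins, fell to 215 counts in the bleomycin library, against 370 in the saline library, a ratio of 0.588 (0.494 to 0.697). Its partner Sec63 had 28 and 29 counts in the bleomycin and saline libraries and an interval from 0.560 to 1.70.

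Signal peptidase, which removes the signal peptide, had 1 higher of the 4 subunit genes that are members here. Spcs1, an accessory subunit, had 382 counts in the bleomycin library and 238 in the saline library, a ratio of 1.62 (1.38 to 1.92). Spcs3, a noncatalytic subunit, had 52 counts in the bleomycin library and 36 in the saline library, and the catalytic Sec11c had 46 and 34. Spcs2, an accessory subunit, had 144 counts in the bleomycin library and 150 in the saline library, and none of these 3 passed the test.

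The COPII role holds 11 members, the coat genes and the receptor Mia3. Of these, 3 coat genes were higher, and Mia3 was lower. These 4 calls are 36.4% of the role, where 27.9% of all tested genes were called. Among all genes with at least 50 counts that share was 42.7%. Sec24b, a cargo-binding coat subunit, had 34 counts in the bleomycin library and 13 in the saline library, a ratio of 2.64 (1.36 to 5.46) and an adjusted p of 0.00991 in the exact test. Its counts fell short of a minimum of 50, and the call was lost with Bonferroni adjustment. Sec13, which builds the outer coat, had 276 counts in the bleomycin library and 181 in the saline library, a ratio of 1.54 (1.27 to 1.87). Sar1b, a GTPase that starts coat assembly, was higher at 146 counts in the bleomycin library and 107 in the saline library, a ratio of 1.38 (1.07 to 1.79). Its adjusted p of 0.0439 in the exact test rose above 0.05 with median-of-ratios scaling (0.0599), total counts (0.0746) and no minimum count (0.0634). Mia3, the receptor that loads procollagen at ER exit sites, had 109 counts in the bleomycin library and 177 in the saline library, a ratio of 0.623 (0.486 to 0.795). Mia3 was thus on the opposite side to the coat genes that passed.

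The other coat subunits did not pass as tested here. The inner coat gene Sec23a had 83 counts in the bleomycin library and 61 in the saline library, and Sec23b had 36 and 44. Sar1a had 536 counts in the bleomycin library and 467 in the saline library, and passed, higher, only with a minimum of 50 counts (adjusted p = 0.0461 in the exact test). The outer coat gene Sec31a had 48 counts in the bleomycin library and 31 in the saline library. Among the cargo-binding paralogues, Sec24a had 40 counts in the bleomycin library and 31 in the saline library, Sec24c had 24 and 38, and Sec24d had 11 and 19. Sec24b held 31.2% (22.7 to 40.8) of Sec24 tags in the bleomycin library and 12.9% (7.04 to 21.0) in the saline library, so these intervals did not overlap, while those of Sec24a, Sec24c and Sec24d did. No source used here says how the authors assigned tags shared by paralogues.

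**Figure D4:**
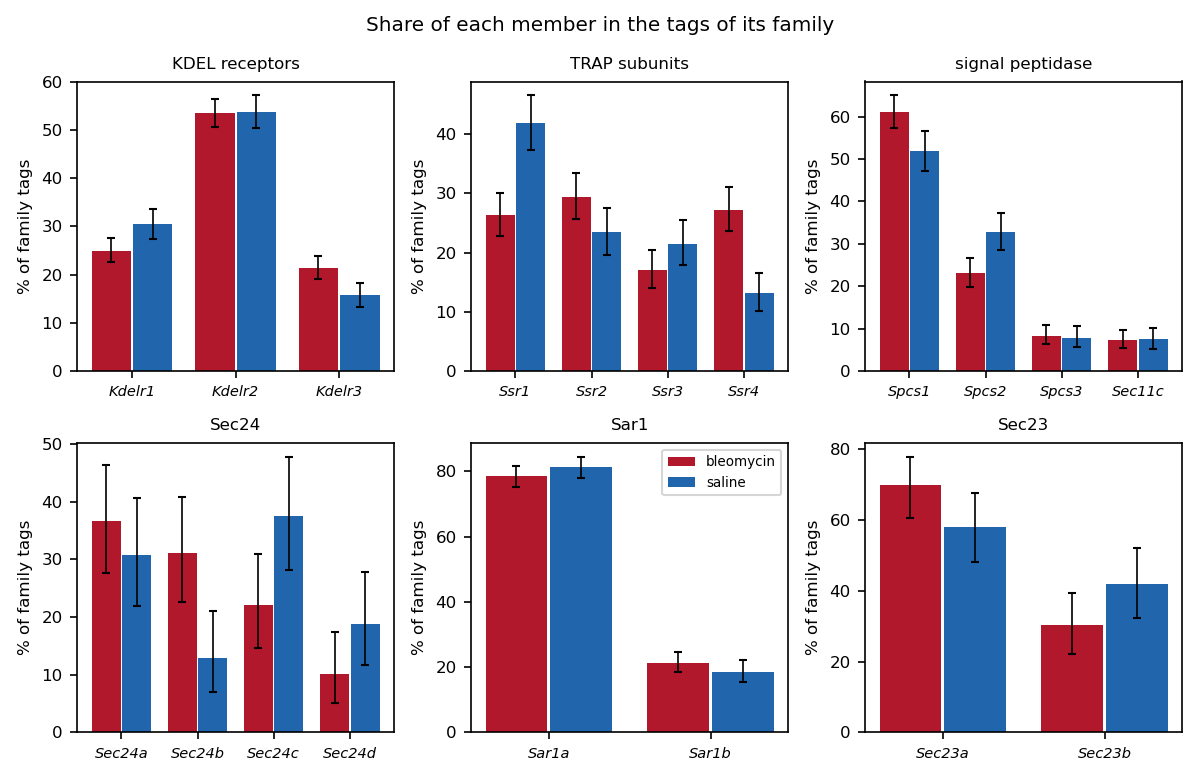
Share of each member in the summed tags of the members of its family, in percent, for the bleomycin library (red) and the saline library (blue), with exact 95% intervals that cover counting error only. Genes of a family outside the list of members are not in these sums. Ssr4 takes 27.2% of TRAP tags in the bleomycin library and 13.1% in the saline library, while the shares of Sar1a and Sar1b overlap.

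Cargo and retrieval receptors were higher where they passed the test. Lman1, a lectin that carries glycoproteins out of the ER, had 106 counts in the bleomycin library and 54 in the saline library, a ratio of 1.99 (1.42 to 2.81), just under the 2-fold limit. Surf4, a receptor for soluble cargo, had 250 counts in the bleomycin library and 160 in the saline library, a ratio of 1.58 (1.29 to 1.94). The p24 proteins Tmed10, with 441 and 424 counts, and Tmed2, with 26 and 29, in the bleomycin and saline libraries, did not pass.

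KDEL receptors bind escaped ER chaperones in the Golgi and return them, and all 3 had ratios above 1. Kdelr3 had 250 counts in the bleomycin library and 134 in the saline library, a ratio of 1.89 (1.52 to 2.35), with an adjusted p of 2.11e-08 in the exact binomial test. Kdelr2, the most abundant of them, had 627 counts in the bleomycin library and 460 in the saline library, a ratio of 1.38 (1.22 to 1.56). Kdelr1 had 292 counts in the bleomycin library and 260 in the saline library and did not pass. Summed, the receptors had 1169 counts in the bleomycin library and 854 in the saline library, a ratio of 1.38 (1.27 to 1.51). Hspa5, a ligand that they return to the ER, was lower, and Hsp90b1, another ligand, did not pass the test. The COPI coat genes Copa, with 164 and 141 counts, and Copb1, with 172 and 137, in the bleomycin and saline libraries, did not pass.

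Set against collagen, a main cargo of these cells, the counts of ER genes were lower in the bleomycin library. Col1a1, Col1a2 and Col3a1 together had 19724 counts in the bleomycin library and 8437 in the saline library. For every 100 of these collagen tags there were 52.4 member tags in the bleomycin library and 121 in the saline library. The folding, sensor and degradation genes had 21.9 per 100 in the bleomycin library and 61.3 in the saline library, and the export and retrieval genes had 18.6 and 35.2. The member sums themselves were close, at 10335 and 10218 counts in the bleomycin and saline libraries, and Col1a2 regulatory sequence was also the basis of the sort.

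Other genes of the same pathways were described from 7 lists that together held 152 tested genes, of which 23 were higher and 17 lower at any ratio. That is 26.3%, near the 27.9% of all tested genes (13.8% higher and 14.1% lower), against which the counts per list below are also to be read. Among 27 other folding and redox genes, 5 were higher and 4 lower. Ppic, a prolyl isomerase, had 1436 counts in the bleomycin library and 453 in the saline library, a ratio of 3.21 (2.88 to 3.57), and Pdia5, a disulphide isomerase, had 53 and 28. On the lower side, Txndc11, a thioredoxin-domain protein of the ER, had 42 counts in the bleomycin library and 101 in the saline library, a ratio of 0.421 (0.286 to 0.608), and Mesdc2, a chaperone of lipoprotein receptors, had 126 and 181.

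Glycosylation and glycan trimming genes had 3 of 19 higher and 1 lower. Prkcsh, the glucosidase beta subunit, had 130 counts in the bleomycin library and 81 in the saline library, and Stt3a, a catalytic subunit of the oligosaccharyltransferase, had 177 and 113. Magt1, another subunit of that enzyme, was lower at 55 counts in the bleomycin library and 88 in the saline library, and Rpn2, the most abundant gene of the list, had 457 and 452 and did not pass. Signal recognition and insertion genes had 3 of 17 higher and 0 lower. Srp19 and Srp9, proteins of the signal recognition particle, had 98 and 261 counts in the bleomycin library, against 48 and 141 in the saline library, and Serp1, a small protein bound to the Sec61 channel, had 357 in the bleomycin library and 237 in the saline library.

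Among 20 other degradation genes, 4 were higher and 3 lower. Vcp, the ATPase that pulls proteins out of the ER, had 581 counts in the bleomycin library and 441 in the saline library, and its cofactor Nploc4 had 83 and 46. The ubiquitin-conjugating enzyme Ube2j1 was lower at 81 counts in the bleomycin library and 132 in the saline library, and the ubiquitin ligase Rnf5 was lower at 43 and 73.

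Further export genes were also called in both directions. Of 38 further COPII and ER exit genes, 5 were higher and 3 lower. Gosr2, a membrane fusion protein of the Golgi, had 140 counts in the bleomycin library and 77 in the saline library, and Tfg, a protein of ER exit sites, had 61 and 32. Preb, which loads Sar1 with GTP, was lower at 33 counts in the bleomycin library and 68 in the saline library, a ratio of 0.491 (0.314 to 0.754), and Tmed5, a p24 protein, was lower at 81 and 118. Rab1, a GTPase of traffic to the Golgi and the most abundant gene of the list, had 296 counts in the bleomycin library and 308 in the saline library and did not pass. Of 16 further COPI genes, 2 were higher and 0 lower. Rer1, a retrieval receptor, had 187 counts in the bleomycin library and 125 in the saline library, and the coat GTPase Arf5 had 276 and 209, while the more abundant Arf4 had 1206 and 1277 and did not pass.

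Other regulators and targets of the unfolded protein response had 6 of 15 lower and 1 higher, with a median log2 ratio of −0.43. Ppp1r15a, the phosphatase subunit that lifts the translation block set by Eif2ak3, had 276 counts in the bleomycin library and 980 in the saline library, a ratio of 0.285 (0.248 to 0.326). Atf3, a stress-induced transcription factor, had 37 counts in the bleomycin library and 140 in the saline library. Atf4, the transcription factor translated when Eif2ak3 is active and named after its values were seen, had 50 counts in the bleomycin library and 133 in the saline library, a ratio of 0.380 (0.269 to 0.530). Creb3, a membrane-bound transcription factor, was the gene of this list that was higher, at 92 counts in the bleomycin library and 55 in the saline library. Immediate early genes, which tissue dissociation induces, were lower in the same library: of 12 chosen after results were seen, 10 were lower and 0 higher, and their counts summed to 14460 in the bleomycin library and 31494 in the saline library. Their part in the lower values of Herpud1, Hspa5, Atf3 and Ppp1r15a was not tested.

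**Figure D5:**
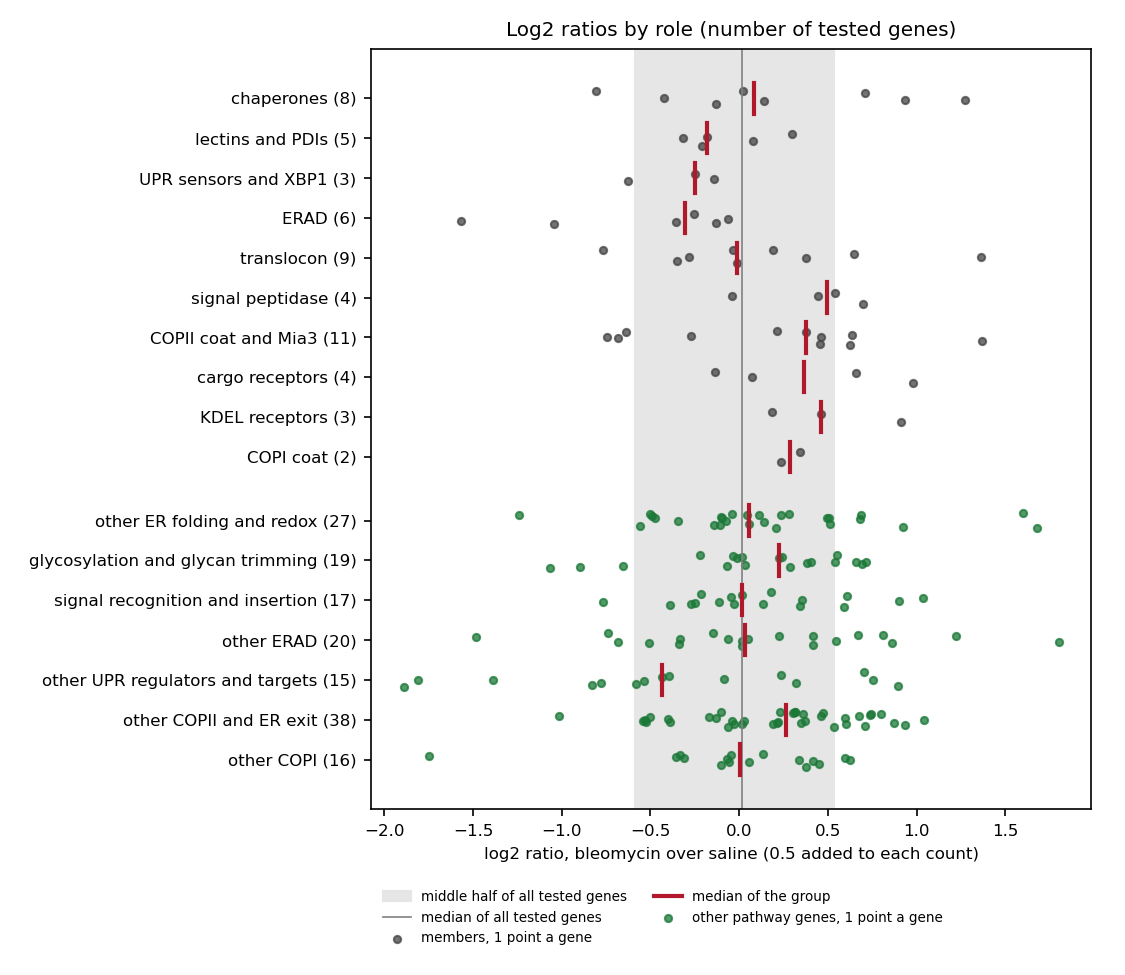
Log2 ratio of bleomycin over saline for each tested gene, with members by role above and the 7 lists of other pathway genes below; red bars are group medians and the grey band holds the middle of all tested genes (25th to 75th percentile). Among members, medians of lectin and isomerase, sensor, degradation and translocon genes lie left of 0, and those of the other roles lie right of it. Of the lists of other pathway genes, only that of unfolded protein response genes has its median left of 0. Median log2 ratios of the other degradation and COPI lists are 0.03 and 0.005, beside 0.02 for all tested genes.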

How the data were processed

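SAGE libraries were made with the SOLiD SAGE kit from sorted cells, per the labels' protocols. The deposited file gives a whole-number count per gene and library, which the authors made; BWA 0.6.2 and mm9 are named without a role, per the submitters' processing notes. No source used here says how tags were assigned, whether strand was used or whether counts were scaled, so the tests hold only if the counts are raw. A blank line was left out. TMM factors from edgeR 4.0.16 (R 4.3.3) were 0.986 for bleomycin and 1.01 for saline. The quasi-likelihood test needs replicates, so a two-sided exact binomial test was used on genes with at least 10 counts, with Benjamini-Hochberg adjustment; log2 ratios add 0.5 to each count. A count is worth 0.922 CPM in the bleomycin library and 0.912 in the saline library. The method was run on simulated counts that held counting error only, so that run does not address variation between mice, sorts or libraries. Alternatives used DESeq2 1.42.0 size factors, total counts, other minimums, a prior of 5, Bonferroni adjustment and other ratio limits. Other pathway genes were named by rule: per list, the 2 highest and 2 lowest ratios that passed where the larger of the paired counts reached 50, and the most abundant gene. The members and lists were chosen with earlier results of these data known. Promoter sequences are from RefSeq, GRCm38.p6; because the submitters name mm9, coordinates serve only to locate those sequences. Tests ran in scipy 1.17.1 under Python 3.11.15, with numpy 2.4.6 and pandas 2.3.3, and plots in matplotlib 3.10.9.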

Additional observations from a re-analysis of the deposited data

How the results depend on the processing

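No paired analysis was possible because each group is 1 library, and for the same reason no replicate could be left out. The main result was 3 members called higher and 1 lower at a ratio of at least 2, and 13 higher and 5 lower at any ratio. A ratio of at least 1.5 gave 9 and 4, and a ratio of at least 3 gave 0 and 0. A minimum of 50 counts left 1 higher at 2-fold. Bonferroni adjustment left 1 higher at 2-fold, and 6 higher and 3 lower at any ratio. The calls that it removed were those of Dnajb9, Creld2, Pdia3, Sec61b, Ssr2, Sec24b, Sar1b, Mia3 and Lman1. At any ratio, total counts gave 11 higher and 8 lower, and median-of-ratios factors gave 10 higher and 5 lower. The median log2 ratio of members was 0.0566 with median-of-ratios factors, 0.0315 with total counts, 0.0763 with no minimum and 0.0467 with a minimum of 50. Hsp90b1 turned to a log2 ratio of −0.0209 with total counts. Over the alternatives the adjusted p of the exact test ran from 0.0355 to 1 for Creld2, 0.0234 to 1 for Pdia3, 0.0301 to 1 for Sar1b, 0.0465 to 1 for Atf6, 0.0457 to 1 for Canx, 0.0425 to 1 for Ssr1 and 0.0461 to 1 for Sar1a, with 1 under Bonferroni adjustment. Leaving out Hsp90b1, an alternative chosen after seeing the data, kept the counts of calls. Over all genes, 760 were higher and 805 lower at 2-fold, against 401 and 491 with a minimum of 50, 288 and 335 with Bonferroni adjustment, and 460 and 458 with a ratio of at least 3. At any ratio, Bonferroni adjustment left 459 and 491 of 1295 and 1317. The cause of these shifts was not tested beyond the stricter limits themselves. Genes under about 20 counts, such as Hyou1, Sdf2l1, Syvn1 and Eif2ak3, are limited by depth.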

Other observations

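Genes outside the list that hold the same promoter motifs were also read. Of 37 genes with an ERSE in the promoter window, 7 outside the list were tested, and none passed the adjusted p of 0.05 in the exact binomial test; 2 had log2 ratios above 0 and 5 below, with a median of −0.16. Xlr3a had 3 counts in the bleomycin library and 13 in the saline library. Its unadjusted p was 0.0213 in that exact test (adjusted p = 0.0703), and it was named for it after its values were seen. The other tested ERSE holders outside the list had unadjusted p values above 0.05 in that test. Of 12 genes with an ERSE-II, 6 outside the list were tested, with 1 higher and 2 lower (50%, where 27.9% of all tested genes were called). Log2 ratios of these 6 genes were above 0 for 4 and below 0 for 2, with a median of 0.20. The lower genes were Nucb1, a calcium-binding protein of the Golgi, with 549 counts in the bleomycin library and 689 in the saline library, and Rbm39, a splicing factor, with 77 and 132. Krtcap2, a subunit of the oligosaccharyltransferase, had 357 counts in the bleomycin library and 305 in the saline library and did not pass. Of 83 tested genes outside the list with the UPRE-like element, 10 were higher and 8 lower (21.7%, where 27.9% of all tested genes were called), with a median log2 ratio of 0.02.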
